A study of Mus musculus with 8 samples.

Results

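Endocannabinoid signalling was followed through 9 of the 18193 genes named on the array: the cannabinoid receptor gene Cnr1, its interacting protein gene Cnrip1, the synthesis genes Dagla, Daglb and Napepld, and the degradation genes Mgll, Faah, Abhd6 and Abhd12. The members were all 17 probe sets that the platform annotation gives to these genes, out of 45037 probe sets tested, and none was removed for low signal. The rule itself uses no measured value, though the genes were listed with earlier results of these data known. RNA came from the striatum of 4 R6/2 mice (numbered 64, 65, 70 and 78) and 4 wild-type mice (42, 48, 54 and 63), each hybridised to 1 Affymetrix array. Every animal was a 12-week-old (85-day) female on a mixed C57Bl/6 / CBA background. R6/2 mice carry, beside their own huntingtin genes, a transgene with the first exon of human huntingtin and an expanded CAG repeat under the human promoter. The transgene is active in many tissues, and no labelled step isolated a cell type. The comparison asked how the transcripts of this pathway differed between the genotypes.

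The CB1 receptor, encoded by Cnr1, is a Gi/o-coupled receptor on axon terminals, where its activation lowers transmitter release. In the striatum it is carried by medium spiny projection neurons, the main cell type of this region, and by some interneurons, and it also sits on cortical afferents. Its ligand 2-arachidonoylglycerol (2-AG) is made from diacylglycerol in the postsynaptic neuron, mainly by diacylglycerol lipase alpha (Dagla), and is hydrolysed by monoacylglycerol lipase (Mgll) and to a smaller extent by ABHD6 and ABHD12. The other ligand, anandamide, can be released by NAPE-PLD (Napepld) and is hydrolysed by fatty acid amide hydrolase (Faah).

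The data are log2 expression values on a common scale, with array medians between 5.08 and 5.13 and correlations between arrays from 0.983 to 0.994. Precision is limited by the number of arrays. Of 11 measured markers of medium spiny neurons, 10 were called lower in R6/2 mice (limma adjusted p under 0.05), against 5.13% of all named genes. The exception was Tac1, with a log2 difference of 0.021. The mean of all 11 markers, with the wild-type mean set to 0, ran from -0.85 to -0.81 in R6/2 mice and from -0.20 to 0.11 in wild-type mice. Markers of cortical projection neurons varied between mice: their mean ran from -1.23 to 0.012 in R6/2 mice and from -0.63 to 0.42 in wild-type mice. Of 9 measured, 1 was called lower and 6 had an unadjusted limma p under 0.05, against 25% of all probe sets. Their median log2 difference was -0.67, and their mean averaged -0.70 over the R6/2 mice, so this score also leaned lower in R6/2 mice. The source of its spread was not tested. In whole tissue, fewer cells of a type and less RNA per cell cannot be told apart.

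RefSeq promoter sequences (GRCm38.p6) were available for 7 of the 9 genes, in 11 windows. The upstream 250 bases of the first window are shown for the called genes that had one, because these are the members whose transcripts moved. All 3 run 5′ to 3′ on the plus strand and end at the base before the annotated start. Capitals mark GC boxes (GGGCGG or, on the other strand, CCGCCC), the letters read by Sp1-type factors.
Cnr1, chr4:33924014-33924263: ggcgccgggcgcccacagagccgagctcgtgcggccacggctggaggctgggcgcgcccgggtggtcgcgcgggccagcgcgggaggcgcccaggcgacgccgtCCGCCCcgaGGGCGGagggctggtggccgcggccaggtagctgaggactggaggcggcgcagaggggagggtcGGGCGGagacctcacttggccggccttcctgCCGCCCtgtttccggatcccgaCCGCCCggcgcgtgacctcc
Mgll, chr6:88724162-88724411: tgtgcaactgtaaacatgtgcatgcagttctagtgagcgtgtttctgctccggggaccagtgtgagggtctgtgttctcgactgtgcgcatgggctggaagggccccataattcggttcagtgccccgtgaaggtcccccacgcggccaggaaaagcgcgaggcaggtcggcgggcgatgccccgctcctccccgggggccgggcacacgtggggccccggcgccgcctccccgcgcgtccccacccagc
Cnrip1, chr11:17051609-17051858: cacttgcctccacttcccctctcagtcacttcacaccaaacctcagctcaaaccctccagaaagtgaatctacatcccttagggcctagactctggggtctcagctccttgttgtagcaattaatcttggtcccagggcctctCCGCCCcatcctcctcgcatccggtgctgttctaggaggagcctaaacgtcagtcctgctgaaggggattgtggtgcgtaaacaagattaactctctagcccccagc
The first Cnr1 and Mgll windows were rich in G and C (79.2% and 68%) and held 36 and 23 CpG dinucleotides, while the Cnrip1 window held 54% and 5. Over all 32851 windows the median was 52.4% and 6 CpG. The Cnr1 window contained 5 GC boxes on both strands together and the Cnrip1 window 1, and 32.7% of all windows held at least 1. The first Mgll window held none. Other annotated starts differed: the second Mgll window held 1 GC box at 74.8% G and C, and the other Cnr1 windows held none, at 68.8% and 49.2%. Genes that were not called had such traits too: GC boxes were in the Faah window (2) and the second Abhd6 window (1), and Napepld had 69.6% G and C. Of all 11 member windows, 5 held a GC box. Of the other motifs searched on both strands, TATAAA was in 0 of the 11 windows (12.4% of all windows), CCAAT in 1 of them (33.8%, in Abhd6) and the cAMP response short site TGACG in 1 (17.8%, in Cnrip1). TGACG shares no letters with a GC box in that window. These matches describe the letters of the windows only.

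In R6/2 striatum the transcripts of the CB1 receptor and of the main neuronal 2-AG synthase were lower, that of the receptor-binding protein Cnrip1 was higher, and those of most hydrolases did not pass the test. Of the 17 probe sets, 3 were called lower (Cnr1, Dagla and Mgll), 1 was called higher (Cnrip1) and 13 did not pass, where a call is an adjusted p under 0.05 in limma over all probe sets. Over all probe sets 10.1% were called, 4.59% lower and 5.54% higher. For 5 of the 17 (Cnr1 1434172_at, both Cnrip1 sets, Dagla and Mgll 1426785_s_at) the 2 genotypes were fully separated, against 16.1% of all probe sets, and 7 had an unadjusted p under 0.05, against 25% of all. The median log2 difference, R6/2 minus wild-type, was -0.064 over the 17 and -0.017 over all probe sets. The endocannabinoid genes did not move one way as a group, and each is therefore described by its role.

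**Figure D1:**
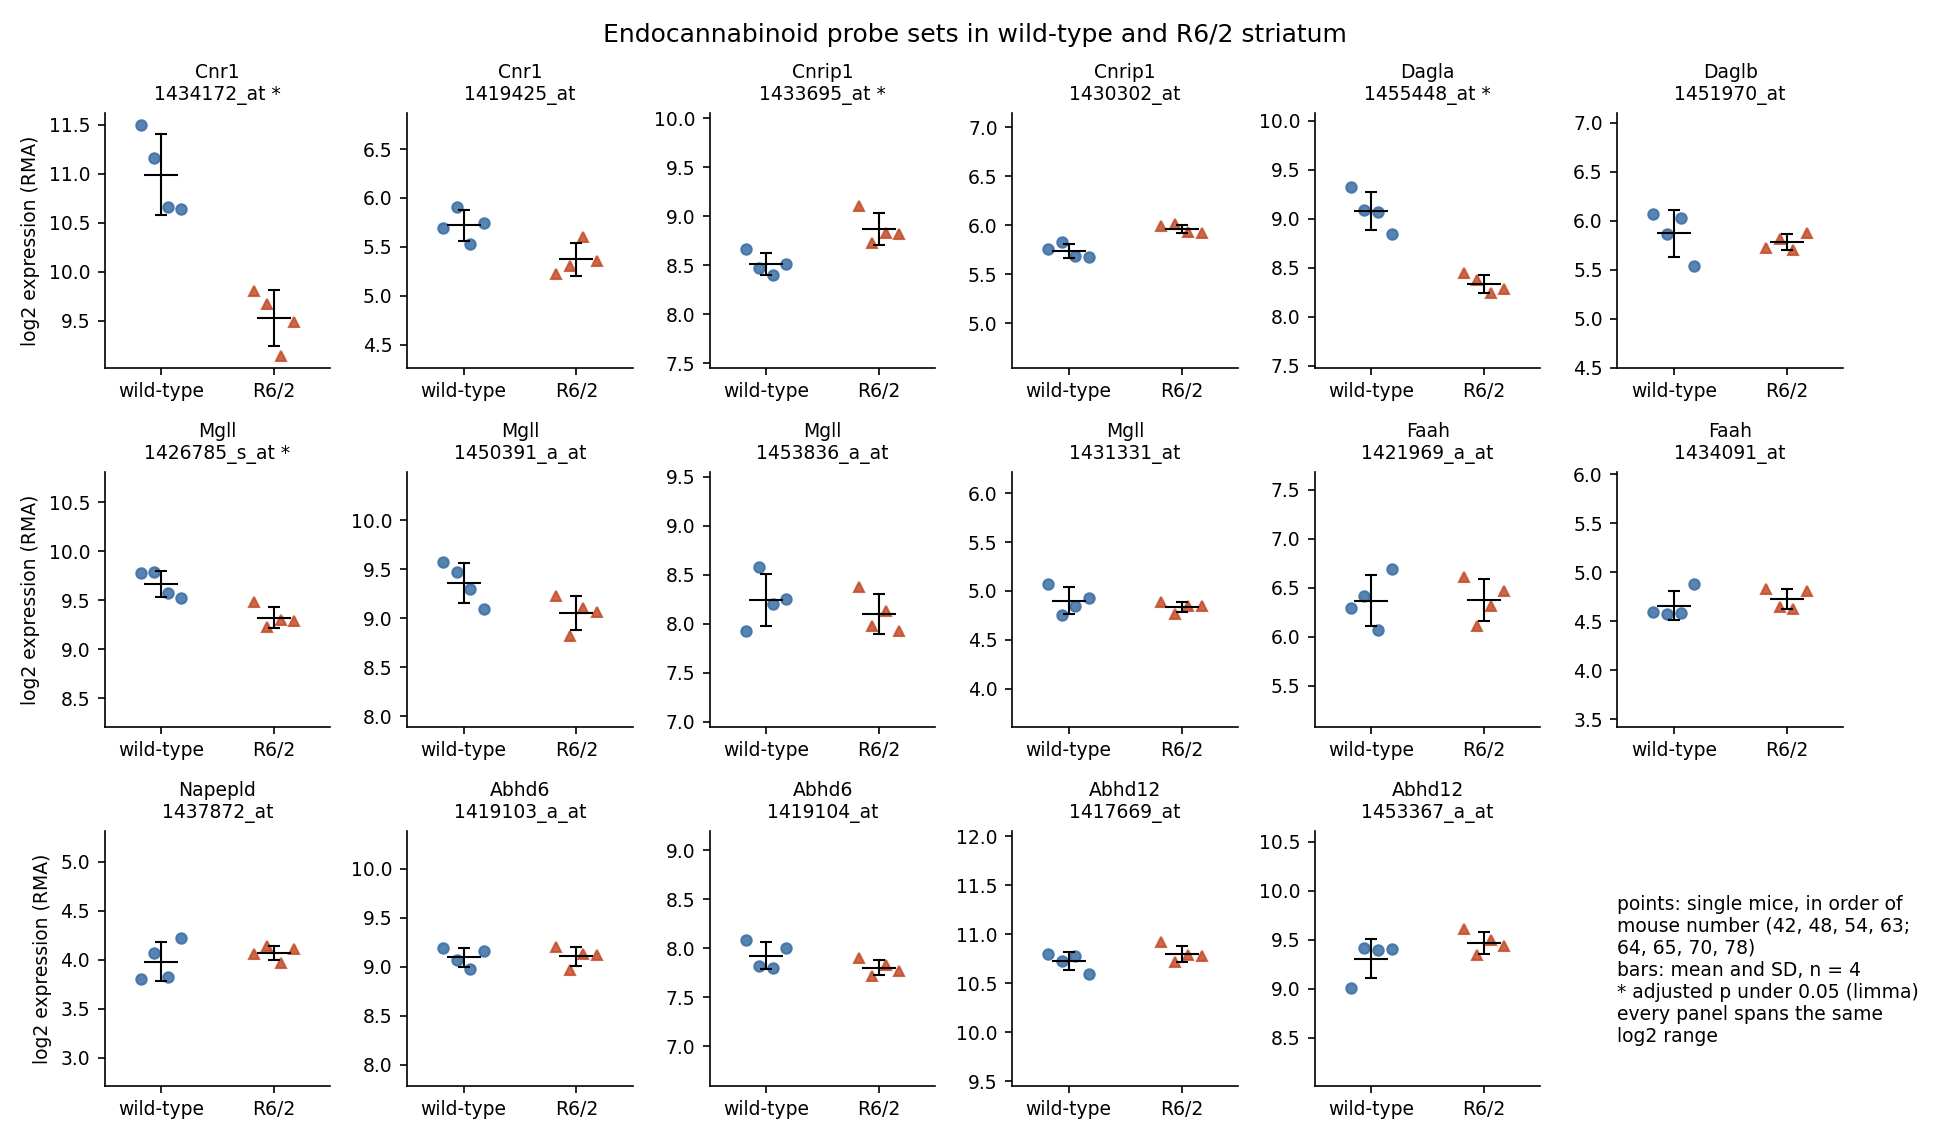
Log2 expression of each of the 17 probe sets in 4 wild-type (circles) and 4 R6/2 mice (triangles), 1 point per mouse, with the mean and SD as bars. Every panel spans the same log2 range, so the separation of Cnr1 (1434172_at) and Dagla can be compared by eye with the overlap of Daglb, Faah, Napepld, Abhd6 and Abhd12.

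The receptor showed the widest separation between genotypes among the 17 probe sets. Cnr1 probe set 1434172_at read 11.50, 11.16, 10.66 and 10.64 (log2) in wild-type mice 42, 48, 54 and 63. The same probe set read 9.81, 9.67, 9.14 and 9.49 in R6/2 mice 64, 65, 70 and 78. Every R6/2 mouse lay below every wild-type mouse, and the gap between the groups, from 9.81 to 10.64, was about as wide as the spread within wild-type mice. The means were 10.99 ± 0.42 and 9.53 ± 0.29 (SD, n = 4 each), a log2 difference of -1.46 ± 0.20 (SE, adjusted p = 0.00256). This corresponds to 36.2% of the wild-type signal remaining, a 2.76-fold fall. The call held in all 18 alternative fits that measured it, with adjusted p from 0.000871 to 0.0394.

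A second Cnr1 probe set, 1419425_at, was much dimmer and moved less. It read 5.70, 5.91, 5.53 and 5.75 in the wild-type mice, in the order above, and 5.22, 5.30, 5.60 and 5.36 in the R6/2 mice. Part of these values lies within the background range given below for Y-linked probe sets, where differences can be compressed. At that level the range rests on a single Sry probe set. The groups overlapped, with R6/2 mouse 70 above wild-type mouse 54. The difference of -0.35 ± 0.11 did not pass (adjusted p = 0.0661), though it passed without wild-type mouse 54 or without R6/2 mouse 70, over an adjusted p range of 0.0434 to 0.283 in 16 alternatives. Averaged over both probe sets, the Cnr1 difference was -0.91. R6/2 mouse 70 was the lowest of its group on the bright Cnr1 probe set and the highest on the dim one.

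Cnrip1 encodes a small protein that binds the C-terminal tail of the CB1 receptor. Probe set 1433695_at read 8.66, 8.47, 8.41 and 8.51 in wild-type mice 42, 48, 54 and 63, and 9.10, 8.73, 8.83 and 8.82 in R6/2 mice 64, 65, 70 and 78. All 4 R6/2 mice were above all 4 wild-type mice, the closest pair being R6/2 mouse 65 and wild-type mouse 42. Cnrip1 rose by 0.36 ± 0.096 (log2, SE, adjusted p = 0.0426), a 1.28-fold difference. That call was close to the threshold: it held in 11 of 18 alternatives (adjusted p 0.0164 to 0.109) and, when single mice were left out, only without wild-type mouse 42 (value 0.41) or R6/2 mouse 65 (value 0.40). The dimmer probe set 1430302_at gave the same direction with groups that did not overlap, 5.68 to 5.83 in wild-type mice against 5.92 to 6.01 in R6/2 mice. Its difference of 0.22 ± 0.068 did not pass (adjusted p = 0.0640).

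Of the diacylglycerol lipases, only Dagla was called. Its single probe set, 1455448_at, read 9.32, 9.09, 9.06 and 8.85 in wild-type mice 42, 48, 54 and 63, and 8.45, 8.38, 8.24 and 8.28 in R6/2 mice 64, 65, 70 and 78. The groups did not overlap, and the R6/2 mice spanned 0.21 log2 units against 0.47 in wild-type mice. Dagla fell by 0.74 ± 0.10 (adjusted p = 0.00245), to 59.7% of the wild-type signal, and passed in all 18 alternatives, with adjusted p from 0.000773 to 0.0285. Daglb, the related lipase that is prominent in microglia and other non-neuronal cells, read 6.06, 5.87, 6.02 and 5.53 in the wild-type mice and 5.72, 5.82, 5.70 and 5.87 in the R6/2 mice. Its R6/2 values lay wholly inside the wild-type range, with a difference of -0.094 and a 95% interval of -0.35 to 0.16 (adjusted p = 0.668). Without wild-type mouse 63 the Daglb difference was -0.21 and without wild-type mouse 42 it was -0.030, neither called (adjusted p 0.165 to 0.901). The Dagla interval, -0.97 to -0.52, lay below that of Daglb. The Daglb probe set was much dimmer (mean 5.82 over all mice, against 8.71 for Dagla). Whether its difference was compressed at that level was not tested.

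The 2-AG hydrolase gene Mgll had 4 probe sets, and 1 of them was called. Mgll probe set 1426785_s_at, the brightest, read 9.77, 9.79, 9.58 and 9.52 in the wild-type mice and 9.48, 9.23, 9.30 and 9.28 in the R6/2 mice. Its _s_at suffix marks a kind of probe set that may cross-hybridise, and the setting without such sets could not measure it. The Dagla minus Mgll difference given below uses it as well. The groups came close to touching, at 9.48 in R6/2 mouse 64 and 9.52 in wild-type mouse 63. The fall of 0.34 ± 0.090 (adjusted p = 0.0387, 1.27-fold) passed in 7 of 17 alternatives, over an adjusted p range of 0.0221 to 0.275. It was lost after centring each array on its median, with unmoderated variances, with the cortical marker score as a covariate, for the mean of the 4 probe sets (-0.21), and without any of the mice 42, 48, 54, 65, 70 and 78. The next brightest set, 1450391_a_at, differed by -0.31 ± 0.12 with overlapping groups (adjusted p = 0.141). The 2 remaining Mgll sets differed by -0.14 ± 0.14 (1453836_a_at, adjusted p = 0.606) and by -0.064 ± 0.082 (1431331_at, adjusted p = 0.689). All 4 point estimates were below 0, and they were nearer to 0 in the dimmer probe sets.

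Neither of the other serine hydrolases that act on 2-AG was called. ABHD6 sits in the postsynaptic membrane, and its brighter probe set, 1419103_a_at, lay between 8.97 and 9.19 in wild-type mice and between 8.97 and 9.20 in R6/2 mice. The difference was 0.0087, with a 95% interval of -0.17 to 0.19. The second Abhd6 set, 1419104_at, differed by -0.12 (interval -0.31 to 0.071, adjusted p = 0.431). Abhd12, whose product also hydrolyses lysophosphatidylserine, spanned 10.59 to 10.80 in wild-type mice on probe set 1417669_at and 10.72 to 10.92 in R6/2 mice, a difference of 0.077 (interval -0.094 to 0.25). Its other set, 1453367_a_at, differed by 0.16 (interval -0.071 to 0.40). None of these 4 intervals reached a fall as large as that of Dagla.

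Neither anandamide enzyme was called. Faah probe set 1421969_a_at read 6.29, 6.41, 6.07 and 6.69 in the wild-type mice and 6.61, 6.11, 6.31 and 6.47 in the R6/2 mice, so that all R6/2 values lay inside the wild-type range. The Faah difference was 0.0064 ± 0.14 (interval -0.31 to 0.32), and that of its dimmer set 1434091_at was 0.069 ± 0.092. The single Napepld set, 1437872_at, lay between 3.81 and 4.22 in wild-type mice and between 3.97 and 4.14 in R6/2 mice (difference 0.090 ± 0.10, interval -0.14 to 0.32). As a gauge of background in these females, 13 Y-linked probe sets gave values of 2.77 to 5.37, and the median of their means was 3.21. The values of Napepld, of Faah 1434091_at and of Mgll 1431331_at fall inside the full range, where differences in transcript can be compressed, as do 3 of the 4 R6/2 values of Cnr1 1419425_at. All of these values lie above 3.71, so only those Sry and Zfy2 sets place them within the range.

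**Figure D2:**
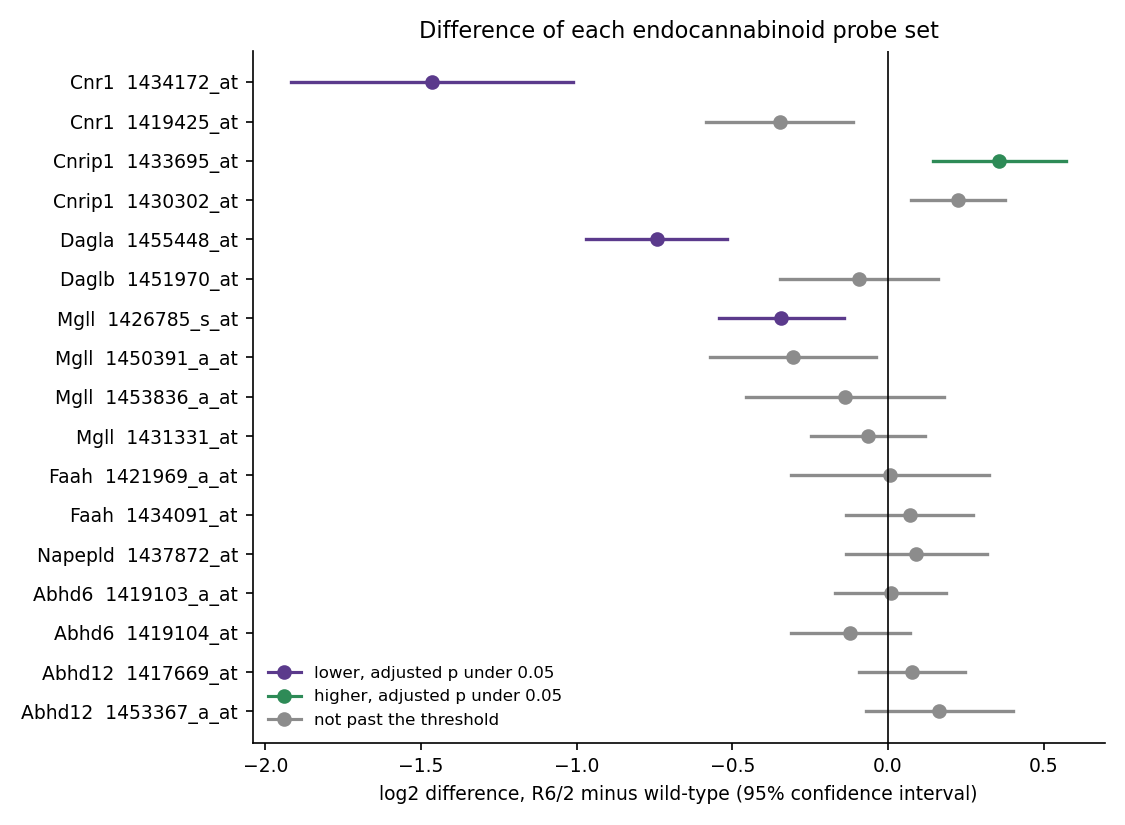
Log2 difference (R6/2 minus wild-type) of each probe set with its 95% confidence interval from limma. Cnr1 1434172_at (-1.46) and Dagla (-0.74) lie farthest from 0, Mgll 1426785_s_at (-0.34) and Cnrip1 1433695_at (0.36) pass on either side of it, and the 13 others do not pass.

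Whether pairs of transcripts changed by unequal amounts was tested on the differences within each array, which remove any shift that an array shares. With the wild-type mean set to 0, the log2 difference of Dagla minus Mgll was 0.13, -0.11, 0.073 and -0.089 in wild-type mice 42, 48, 54 and 63. In R6/2 mice 64, 65, 70 and 78 it was -0.45, -0.27, -0.47 and -0.42. Synthase relative to hydrolase transcript was therefore lower in all 4 R6/2 mice, by 0.40 or 1.32-fold (exact permutation p = 0.0286, 2-sided, the minimum for 70 arrangements, and 0.0381 adjusted over the 4 differences tested). Dagla also fell relative to Daglb, with R6/2 values from -0.80 to -0.48 against -0.17 to 0.11 in wild-type mice (difference -0.65, same exact p and adjusted p). This sets a bright probe set against a dim one, with the limit given above for Daglb. The receptor moved against its binding protein: Cnr1 minus Cnrip1 was -1.78, -1.54, -2.17 and -1.80 in R6/2 mice 64, 65, 70 and 78 and lay between -0.35 and 0.36 in wild-type mice (difference -1.82, or 3.54-fold). Because Cnr1 was fully separated downward and Cnrip1 upward, this difference had to separate the genotypes. It restates those results, so its p-value, fixed by those separations, is not read as a result. It still counted among the 4 differences in the adjustment, which made the adjusted p of the Dagla differences smaller.

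Cnr1 was also set against the mean of the 11 medium spiny neuron markers. Cnr1 minus this mean read 0.48, 0.11, -0.44 and -0.15 in the wild-type mice and -0.36, -0.47, -1.01 and -0.69 in the R6/2 mice. The groups overlapped, because wild-type mouse 54 lay below R6/2 mouse 64. The difference of -0.63 did not pass (exact permutation p = 0.0571, adjusted p = 0.0571), and it passed only without wild-type mouse 54 (-0.78, adjusted p = 0.0286, in a range of 0.0286 to 0.114 when single mice were left out). A larger fall of Cnr1 than of this marker mean, which includes the unchanged Tac1, was thus not shown at this number of mice.

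**Figure D3:**
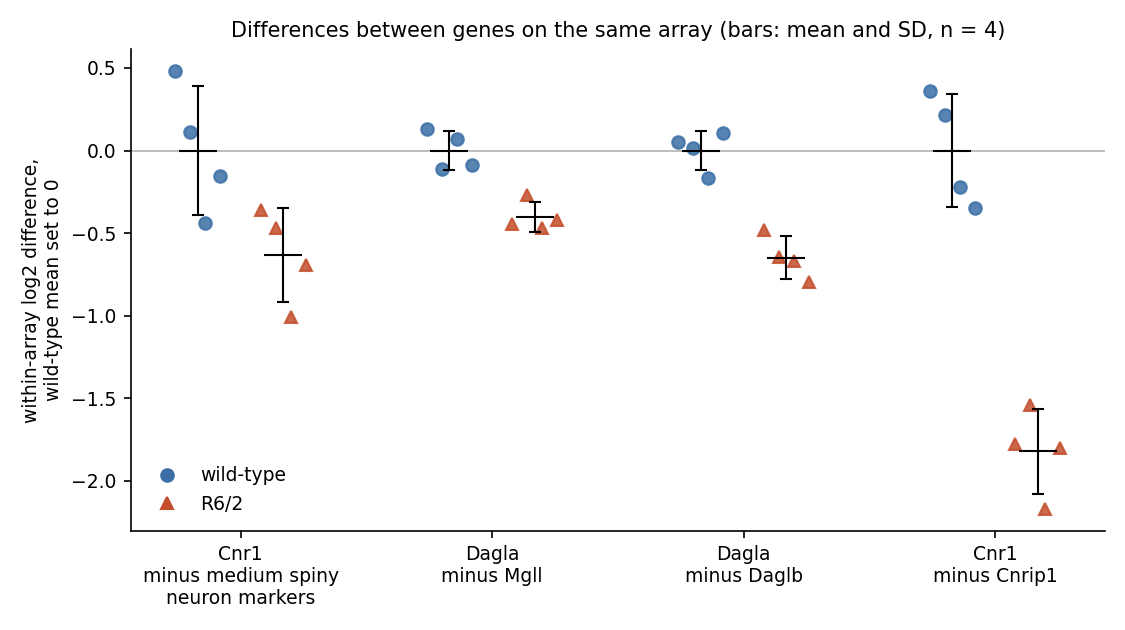
Within-array log2 differences between genes, wild-type mean set to 0, for 4 wild-type (circles) and 4 R6/2 mice (triangles), with mean and SD as bars. For Dagla minus Mgll and Dagla minus Daglb the genotypes do not overlap, nor for Cnr1 minus Cnrip1, whose members were separated in opposite directions, and for Cnr1 minus the medium spiny neuron markers they do.

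The mice of each genotype kept a fixed order in some members. Bright Cnr1 and Dagla ranked wild-type mice 42, 48, 54, 63 and R6/2 mice 64, 65, 78, 70 from high to low, an order in both groups held without ties by 70 (0.155%) of all probe sets, these included. Another order, 64, 70, 78 and 65 among R6/2 mice, was that of the cortical marker mean, and 7 of the 17 probe sets had it without ties, against 6.95% of all probe sets. Cnrip1 1433695_at and both Abhd6 sets followed the cortical mean in wild-type mice as well (42, 63, 48, 54), as did 0.449% of all probe sets. These orders were noticed after the values had been seen. With the cortical mean as a covariate, Cnr1 differed by -1.25 ± 0.25, Dagla by -0.68 ± 0.13, Cnrip1 by 0.53 ± 0.091 and Mgll 1426785_s_at by -0.22 ± 0.10 (adjusted p = 0.0301, 0.0285, 0.0192 and 0.275). This covariate averaged -0.70 in R6/2 mice relative to wild-type mice, so it shares part of the genotype difference.

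**Figure D4:**
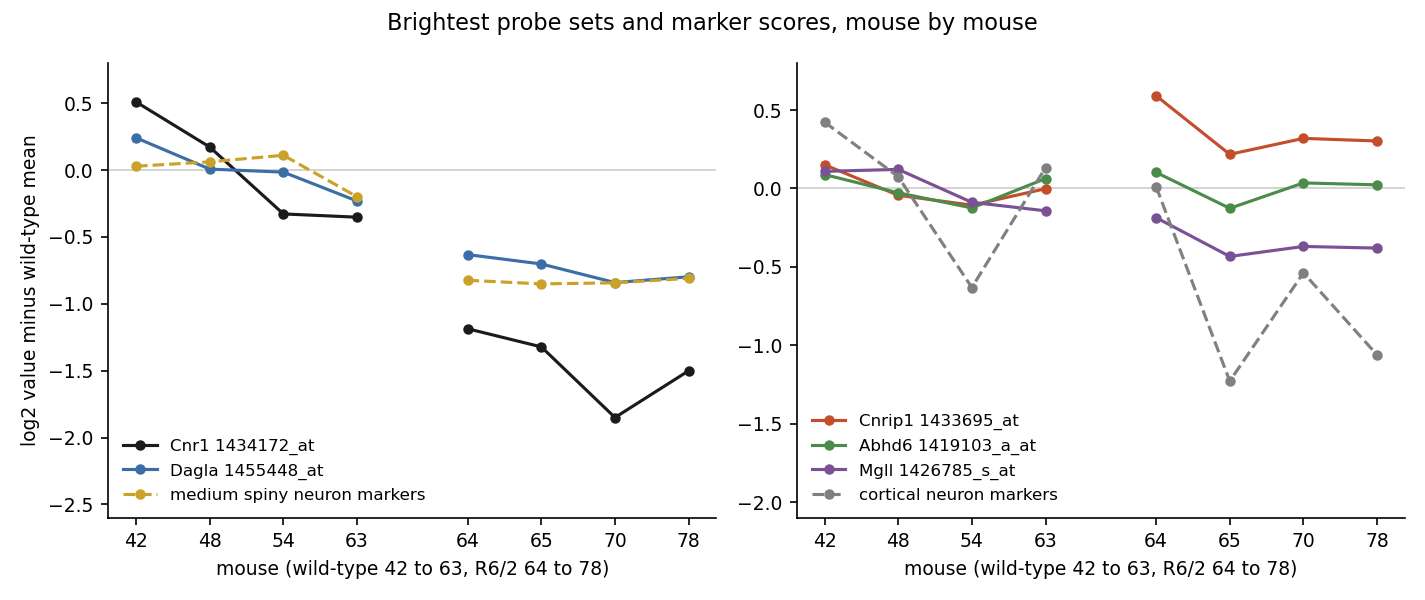
Log2 values minus the wild-type mean for each mouse. Left, Cnr1, Dagla and the medium spiny neuron marker mean; right, Cnrip1, Abhd6, Mgll and the cortical marker mean. Cnr1 and Dagla are lowest in R6/2 mouse 70, while the plotted, brightest sets of Cnrip1, Abhd6 and Mgll are lowest among R6/2 mice in mouse 65, as is the cortical mean (-1.23).

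The genes whose values lay closest to bright Cnr1, by root mean square difference over the 8 arrays after subtracting each wild-type mean, were Lrrc10b (0.14), Coch (0.16), Gm6556 (0.18), Syndig1l (0.18) and Clspn (0.21). Lrrc10b read 11.08, 10.90, 10.67 and 10.39 in the wild-type mice and 9.56, 9.49, 9.15 and 9.29 in the R6/2 mice, the same order as Cnr1 in both groups. All 5 were lower in R6/2 mice, by 1.28 to 1.49 on the log2 scale, since genes close to Cnr1 must share its difference. Closest to Dagla were Rasgef1a (0.042), Rgs7bp (0.067) and Krt222 (0.067). Closest to Cnrip1 were Sod1 (0.048, on its probe set 1435304_at), Rngtt (0.049) and Cmas (0.050), and closest to Mgll were Slc37a4 (0.022), Wsb2 (0.040) and Nav1 (0.042). None of the genes closest to Mgll was called by limma (adjusted p 0.0545 to 0.0603). The probe sets of Sod1, Rngtt, Rgs7bp and Nav1 used here were not the brightest of their genes.

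Around these genes the pathway showed a small number of further changes, counted on the brightest probe set of each gene, of which 5.13% were called lower and 7.29% higher over all 18193 named genes. Upstream of 2-AG, 2 of 9 measured genes for Gq-coupled receptors, Gq proteins and phospholipase C beta fell and 7 did not pass (list median -0.050, against -0.0034 over all named genes). Plcb1, a phospholipase C that produces diacylglycerol, fell by 0.54 ± 0.11 (adjusted p = 0.0135), and 2 of its 4 other probe sets fell as well (-0.73 and -0.53). Its call was lost with unmoderated variances and with the cortical covariate (-0.45), over an adjusted p range of 0.00247 to 0.106. The metabotropic glutamate receptor gene Grm5, whose activation drives 2-AG release, fell by 0.39 ± 0.097 (adjusted p = 0.0298) and by 0.80 on its other probe set. The call of the brighter Grm5 set was lost with unmoderated variances and without any of the mice 48, 54, 64, 70 and 78, over an adjusted p range of 0.00193 to 0.0894.

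Among genes for CB1 coupling and regulation, 1 of 10 measured fell, 2 rose and 7 did not pass (median -0.093). Gnao1, the G protein alpha-o subunit through which CB1 signals, fell by 0.43 ± 0.069 (adjusted p = 0.00502), while its 2 dimmer probe sets did not pass (-0.22 and -0.11). Averaging the 3 sets ended the call (-0.25, adjusted p = 0.0917, in a range from 0.000963). Gprasp1, a protein that sorts receptors including CB1 after internalisation, rose by 0.58 ± 0.076 (adjusted p = 0.00195), and Gnai3, an inhibitory G protein subunit, rose by 0.38 ± 0.10 (adjusted p = 0.0414). The dimmer probe sets of Gprasp1 (0.23, adjusted p = 0.153) and of Gnai3 (0.12, adjusted p = 0.412) did not pass. Of the 2 calls, that of Gprasp1 held in all 18 alternatives. That of Gnai3 was lost with unmoderated variances and without any of the mice 48, 54, 63, 64, 65 and 70 (adjusted p range 0.0162 to 0.113).

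Of 17 further enzymes of 2-AG and N-acylethanolamine metabolism, 2 rose, none fell and 15 did not pass (median -0.055). Gdpd1, a lysophospholipase D of an alternative N-acylethanolamine route, rose by 0.33 ± 0.083 (adjusted p = 0.0317), and Plaat1, an N-acyltransferase that makes the precursor lipids, rose by 0.38 ± 0.11 (adjusted p = 0.0466). A second Plaat1 probe set rose by 0.79 (adjusted p = 0.0171), while that of Gdpd1 did not pass (0.56 ± 0.34). The Gdpd1 call was lost without any mouse but 54 or 78, and the Plaat1 call without any mouse but 54. The cortical covariate and unmoderated variances also ended both, quantile normalization ended that of Plaat1 and averaging the probe sets that of Gdpd1, within adjusted p ranges of 0.0223 to 0.186 for Gdpd1 and 0.00288 to 0.275 for Plaat1. None of 5 measured genes for other cannabinoid and lipid receptors was called by limma, and 1 had an unadjusted p under 0.05. All 5 lay within the full Y-linked background range on every array, so differences in these genes could not be measured well. Above 3.71 that range rests on the Sry and Zfy2 sets named above. All values of Ppara (4.49 to 4.92) and part of those of Pparg, Gpr18 and Cnr2 lay there. Ppara differed by -0.074 ± 0.097 and Pparg by -0.27 ± 0.11. None of the 4 carrier genes was called on its brightest probe set, with 1 at an unadjusted p under 0.05. Fabp5, which carries anandamide to intracellular enzymes, differed by -0.25 ± 0.076 (adjusted p = 0.0659), and its second probe set fell by 0.31 ± 0.073 (adjusted p = 0.0243). The brighter Fabp5 set passed in 5 of 18 alternatives, among them quantile normalization and array weights, over an adjusted p range of 0.0150 to 0.283. The sterol carrier gene Scp2 differed by -0.044 ± 0.091.

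**Figure D5:**
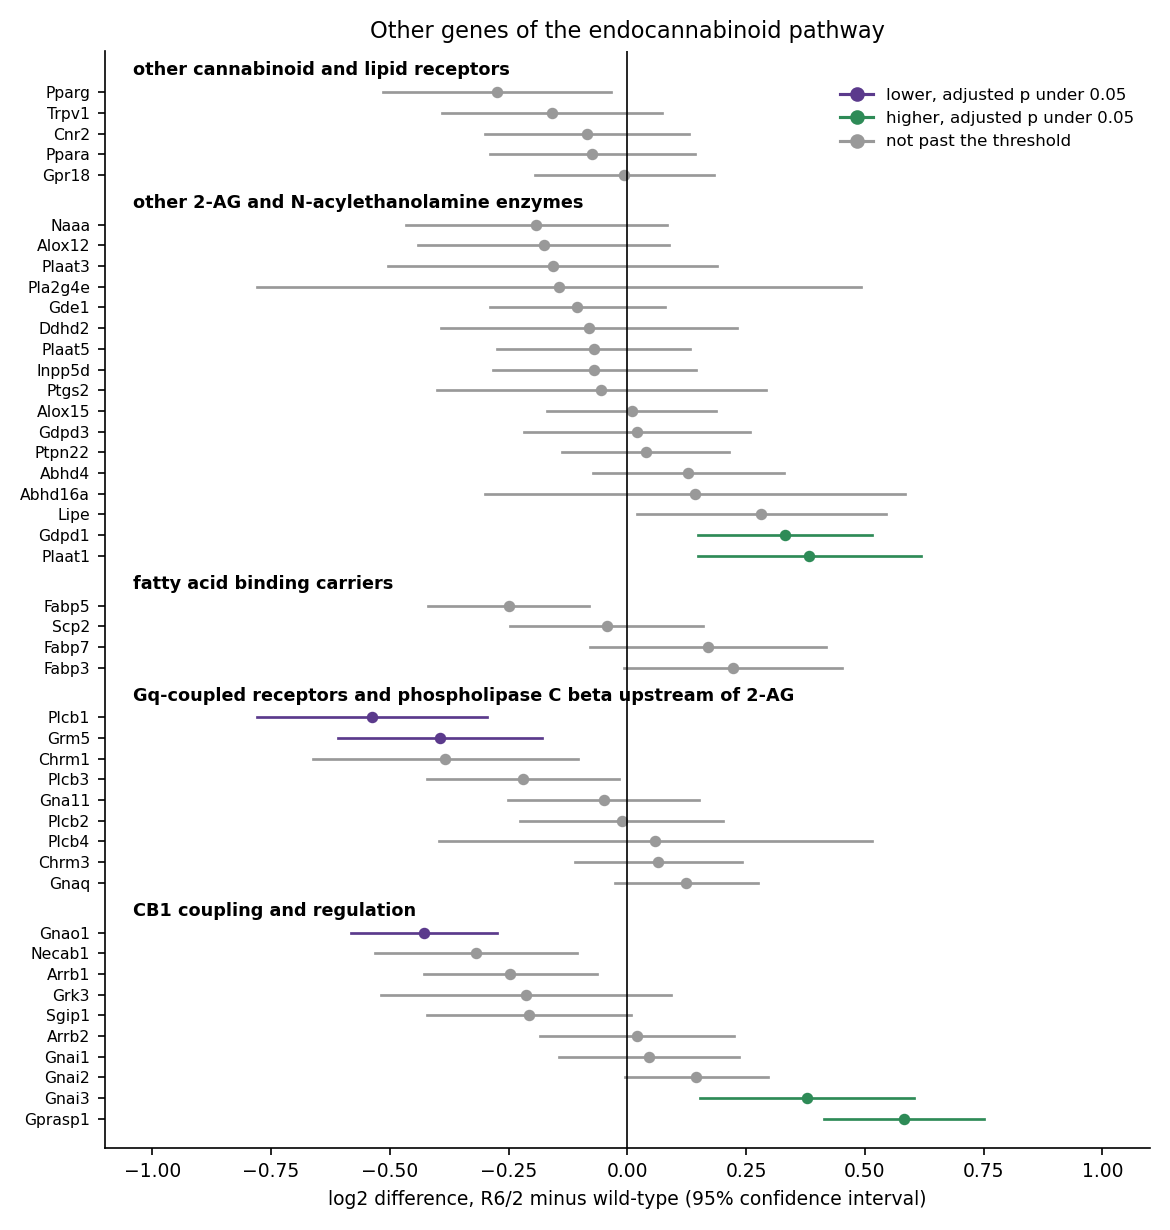
Log2 difference (R6/2 minus wild-type) with 95% confidence interval for the measured genes of 5 pathway lists, each by its brightest probe set. Plcb1, Grm5 and Gnao1 were called lower and Gdpd1, Plaat1, Gnai3 and Gprasp1 higher.

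Markers of other cells that can carry these genes were measured beside them, on their brightest probe sets. Beside the counts stand 5.13% called lower and 12.4% called in all over the named genes, and 25% of all probe sets with an unadjusted p under 0.05. Of 6 interneuron markers 3 were called lower and 5 had an unadjusted p under 0.05, with a list mean between -1.22 and -0.35 in R6/2 mice and between -0.63 and 0.48 in wild-type mice. Among these, Cck was not called and ranked the R6/2 mice in the order of the cortical mean (8.12 in mouse 64, 5.17 in mouse 65). In wild-type mice it was lowest in mouse 54, as was that mean. How far the interneuron list mean reflects cortical tissue was not tested. Of 9 markers of astrocytes, which also hold Mgll, 2 were called lower and 8 had an unadjusted p under 0.05. The astrocyte mean lay at -0.33 to -0.23 in R6/2 mice, below all wild-type values (-0.099 to 0.18). Endothelial and mural markers also had non-overlapping means, -0.44 to -0.25 against -0.13 to 0.10, with 3 of 7 called lower. Of 7 oligodendrocyte markers 2 were called lower, with overlapping means (-0.24 to -0.053 against -0.17 to 0.26). None of 8 microglial markers was called by limma, with 2 at an unadjusted p under 0.05 (-0.092 to 0.15 against -0.11 to 0.11), and none of 3 cholinergic markers, with 1 (-0.29 to -0.057 against -0.13 to 0.072). Choroid plexus and ependymal markers, with 1 of 8 called lower and 1 higher, had a mean of -0.76 in R6/2 mouse 64 and of 0.73 to 1.29 in the other R6/2 mice, against -0.85 to 0.91 in wild-type mice. The part of these cells in the differences of Cnr1, Dagla, Mgll and Cnrip1 was not tested.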

How the data were processed

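Total RNA of 8 striata was labelled with biotin and hybridised to 1 array per mouse. The table holds log2 expression values of 45101 probe sets, made by the authors with RMA in affy, according to the submitters' processing notes. Versions, and which arrays were normalized together, are not given in the sources used here. Controls (64 probe sets) were left out, and 0 value columns were unused. GEO's annotation gave 34945 probe sets 1 symbol, 932 several and 9160 none, and Entrez IDs linked 34741 to RefSeq (GRCm38.p6).

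All 45037 probe sets were fitted together with limma 3.58.1 in R 4.3.3 (lmFit, eBayes), with Benjamini-Hochberg adjustment across all of them and moderated standard errors. The 4 differences between genes were tested by exact permutation of the mice. The limma fit was tested on simulated data, and the permutation test was checked only on a made-up example with a known p-value. Genes named were the members, up to 4 called genes per pathway list by adjusted p (the 2 brightest where nothing passed), and the nearest 5 genes of Cnr1 and 3 of each other called member. Members and lists were chosen with earlier results of these data known. Of 5 wild-type mice in the series' design, 1 was not analysed here. Each array is of a different mouse, so p-values judge differences against the spread between mice. That spread includes dissection, RNA and hybridisation, which cannot be separated here. Alternatives were quantile normalization, median centring, a filter on the dimmest 40%, leaving out probe sets that may cross-hybridise, 1 value per gene, other variance moderation, array weights, a cortical marker covariate and leaving out each array.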

Additional observations from a re-analysis of the deposited data

Results flagged for a closer look

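In 2 of 42 checks of a group of 4 mice for 1 that stands apart from the rest, a mouse did so, and chance gives about 1 in 20. Wild-type mouse 63 read 4.88 on Faah probe set 1434091_at, while the other wild-type mice lay between 4.57 and 4.60, and without this mouse the Faah difference was 0.14 in place of 0.069 (not called in either case). Wild-type mouse 42 read 9.01 on Abhd12 probe set 1453367_a_at, against 9.40 to 9.42 in the others, and without this mouse the Abhd12 difference was 0.066 in place of 0.16.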

How the results depend on the processing

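Over 10 settings other than leaving out a mouse, the member probe sets kept direction and side of the threshold in 142 of 152 comparisons, and when mice were left out in 114 of 136. All probe sets called numbered 4566, against 2781 with 1 probe set per gene, 2675 for gene means (fewer features tested in both), 1861 without moderation and 1953 with the cortical covariate, and 5117 without the dimmest 40% and 5996 with array weights; without single mice they numbered 2650 (without R6/2 mouse 70; 2656 without wild-type 48, 2780 without R6/2 64) to 4262, of the members 2 to 3 lower and 0 to 1 higher. Signs turned only for values near 0: Faah 1421969_a_at (-0.022 after quantile normalization), Abhd6 1419103_a_at (-0.056 for the gene mean), and with the cortical covariate Mgll 1431331_at (0.017), Abhd6 1419104_at (0.0067), Ppara (0.053) and Scp2 (0.078, and 0.0029 for its gene mean). Without single mice, Faah 1421969_a_at ran from -0.092 to 0.11, Abhd6 1419103_a_at from -0.033 to 0.054 and Scp2 from -0.085 to 0.033. Cnr1 minus medium spiny markers ran from -0.78 to -0.47. The cause of the other changes was not tested. No paired analysis was possible because the groups share no mouse numbers. Signal within the Y-linked range, whose upper part rests on the Sry and Zfy2 sets, limits Napepld, Faah 1434091_at, Mgll 1431331_at and the other lipid receptors. It limits part of the values of Cnr1 1419425_at as well.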
